A study of Mus musculus with 43 samples.

Results

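The genes described here are 9 markers of bile duct epithelium and of the ductular reaction, the set of epithelial genes that liver injury brings up around the portal tracts. They are Epcam, Krt7, Krt19, Krt8, Krt18, Sox9, Spp1, Cd24a and Sox4. They were taken by gene symbol from 2 tables of liver expression that together hold 15056 genes, 14622 in one table and 13741 in the other. All 9 were present in both tables, and all 9 passed the filter on low values used for testing (3 or more libraries with 0 log2 CPM or higher, CPM being the read count of a gene scaled to the size of its library).

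Cholangiocytes line the bile ducts and are a small minority of liver cells, so their marker genes are read at low levels in RNA of whole liver. In many chronic liver diseases cells with biliary markers multiply at the edge of the portal tract, and some hepatocytes also switch on biliary genes such as Sox9 and Spp1. Keratins 8 and 18 are shared by hepatocytes and cholangiocytes, whereas keratins 7 and 19 mark the ducts, so these genes do not all report on the same cells. In RNA of whole liver, more or fewer cells of a type and more or less RNA per cell cannot be told apart, and this holds for every value below.

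The study used liver RNA (total) of 36 males, 4 to 5 months old, of mixed background (C57BL6/J and FVBN). PiZ livers express human alpha-1-antitrypsin in its Z variant from a transgene. This protease inhibitor normally leaves the hepatocyte for the blood, and the Z variant misfolds and stays behind in the secretory pathway. In LIRKO mice the liver insulin receptor is deleted, and F1KO stands for deletion of FOXO1 on top of that, a transcription factor held in check by insulin. The Cre driver of these knockouts is not given in the sources used here. The first table, called hemizygous here, held 3 wild-type (WT) mice, 4 LIRKO mice, 5 PiZ mice with a hemizygous transgene (Z), 4 PiZ x LIRKO mice (Z LIRKO), 5 PiZ mice whose label carries an asterisk (Zstar) and 5 PiZ x LIRKO x F1KO mice (Z LIRKO F1KO). The second table, called homozygous, held 3 WT and 4 LIRKO mice together with 3 PiZ mice homozygous for the transgene (ZZ) and 7 PiZ x LIRKO mice of that kind (ZZ LIRKO). Both tables include the same 7 WT and LIRKO animals, so they give no independent replication of LIRKO against WT.

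Libraries held 13.8 to 23.9 M reads in the hemizygous table and 38.2 to 90.1 M in the homozygous table. Insr, the insulin receptor gene, was lower in LIRKO than in WT in both tables, by -1.16 ± 0.11 (SE) log2 units in the hemizygous table (adjusted p = 1.57e-07) and by -1.28 ± 0.12 in the homozygous table (adjusted p = 2.97e-06). The same held with the transgene: Insr differed by -1.25 between Z LIRKO and Z, by -0.79 between ZZ LIRKO and ZZ and by -1.60 between Z LIRKO F1KO and Zstar. Foxo1 differed by -2.77 between the last pair, so the libraries followed their knockout labels. Transcripts of digestive enzymes of the pancreas were read in some livers: Prss2, a trypsinogen gene, stood above 0 log2 CPM in WT mice 1586 and 1601, in ZZ mouse 1846 and in further mice of the hemizygous table. WT mouse 1564 was the WT mouse without it. For the biliary marker genes named at the start, comparisons with WT are therefore also given without these libraries where a call changes. Whether calls of the other genes in the text, Insr among them, change without these libraries was not examined. The hepatocyte gene Alb, for albumin, averaged between 15.18 and 16.47 log2 CPM in the 4 groups of the homozygous table.

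Sox4, Epcam and Spp1 had the largest mean changes of the 9 genes between ZZ and WT livers, described below, and their promoters are printed for that reason. Each is the 250 bases before the RefSeq start on GRCm38.p6, read 5′ to 3′ on the gene's strand. Epcam lies on the plus strand (chr17:87635729-87635978), Spp1 on the plus strand (chr5:104434861-104435110, the first of 2 annotated starts) and Sox4 on the minus strand (chr13:28953700-28953949). Capitals mark motif matches.
Epcam: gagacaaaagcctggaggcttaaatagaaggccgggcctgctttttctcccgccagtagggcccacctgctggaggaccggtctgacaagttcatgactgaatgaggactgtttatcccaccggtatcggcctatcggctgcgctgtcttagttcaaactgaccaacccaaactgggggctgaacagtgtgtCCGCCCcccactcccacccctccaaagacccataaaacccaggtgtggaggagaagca
Spp1: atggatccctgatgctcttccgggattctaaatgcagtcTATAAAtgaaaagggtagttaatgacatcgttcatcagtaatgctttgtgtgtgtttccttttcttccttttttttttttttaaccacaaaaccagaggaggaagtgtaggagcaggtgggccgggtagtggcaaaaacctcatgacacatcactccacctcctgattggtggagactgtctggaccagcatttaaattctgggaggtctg
Sox4: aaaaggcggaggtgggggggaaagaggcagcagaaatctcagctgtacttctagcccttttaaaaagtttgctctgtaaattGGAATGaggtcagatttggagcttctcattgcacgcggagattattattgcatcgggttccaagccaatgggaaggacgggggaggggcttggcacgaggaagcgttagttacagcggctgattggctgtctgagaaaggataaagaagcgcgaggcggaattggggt

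Of the 9 genes 6 had a promoter in the RefSeq table, giving 7 windows because Spp1 had 2 (the others were Krt7, Krt8 and Krt18). Both strands were searched for 7 motifs, and no match overlapped another. These were the TATA box, searched as TATAAA, and the GC box, searched as GGGCGG. The AP-1 motif was searched as TGANTCA, and the TEAD motif, for the partners of YAP, as GGAATG. The SOX motif was searched as AACAAT and the RBPJ motif, for NOTCH signals, as GTGGGAA. The FOXO motif was searched as GTAAACA. The capitals in Epcam are a GC box on the opposite strand, 58 to 53 bases before the start. Those in Spp1 are the letters of a TATA box far from the start, 211 to 206 bases before it, and those in Sox4 a TEAD match 168 to 163 bases before it. The 7 windows differed in what they held: 2 had a GC box (Epcam and Krt7), 1 a TATA box, 1 a TEAD match, 1 an RBPJ match (Krt8), and none an AP-1, SOX or FOXO match. Among all 32851 windows of this length the shares with a match were 32.742% for the GC box, 12.368% for the TATA box, 12.642% for TEAD, 5.415% for RBPJ, 6.749% for AP-1, 9.424% for SOX and 3.166% for FOXO. These are matches of letters, which describe the windows and identify no bound site.

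In the homozygous table the ZZ and WT livers were compared for the effect of 2 copies of the transgene. All 9 genes were higher in ZZ livers (limma with Benjamini-Hochberg adjustment over 13690 genes, threshold 0.05), against 16.1% of all genes tested that were called higher and 14.2% called lower. The median change of the 9 genes was 1.87 log2 units, beside -0.04 over all genes tested. Sox4, Epcam, Spp1 and Cd24a rose most, between 6.35-fold and 11.9-fold, the 4 keratins rose between 2.51-fold and 3.67-fold, and Sox9 rose least, by 1.82-fold. Fold changes are differences of log2 CPM values that hold 0.5 added reads, so they slightly understate the change of low genes. The lowest of the 9 in WT, Krt7, had at least 34 reads per library.

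**Figure D1:**
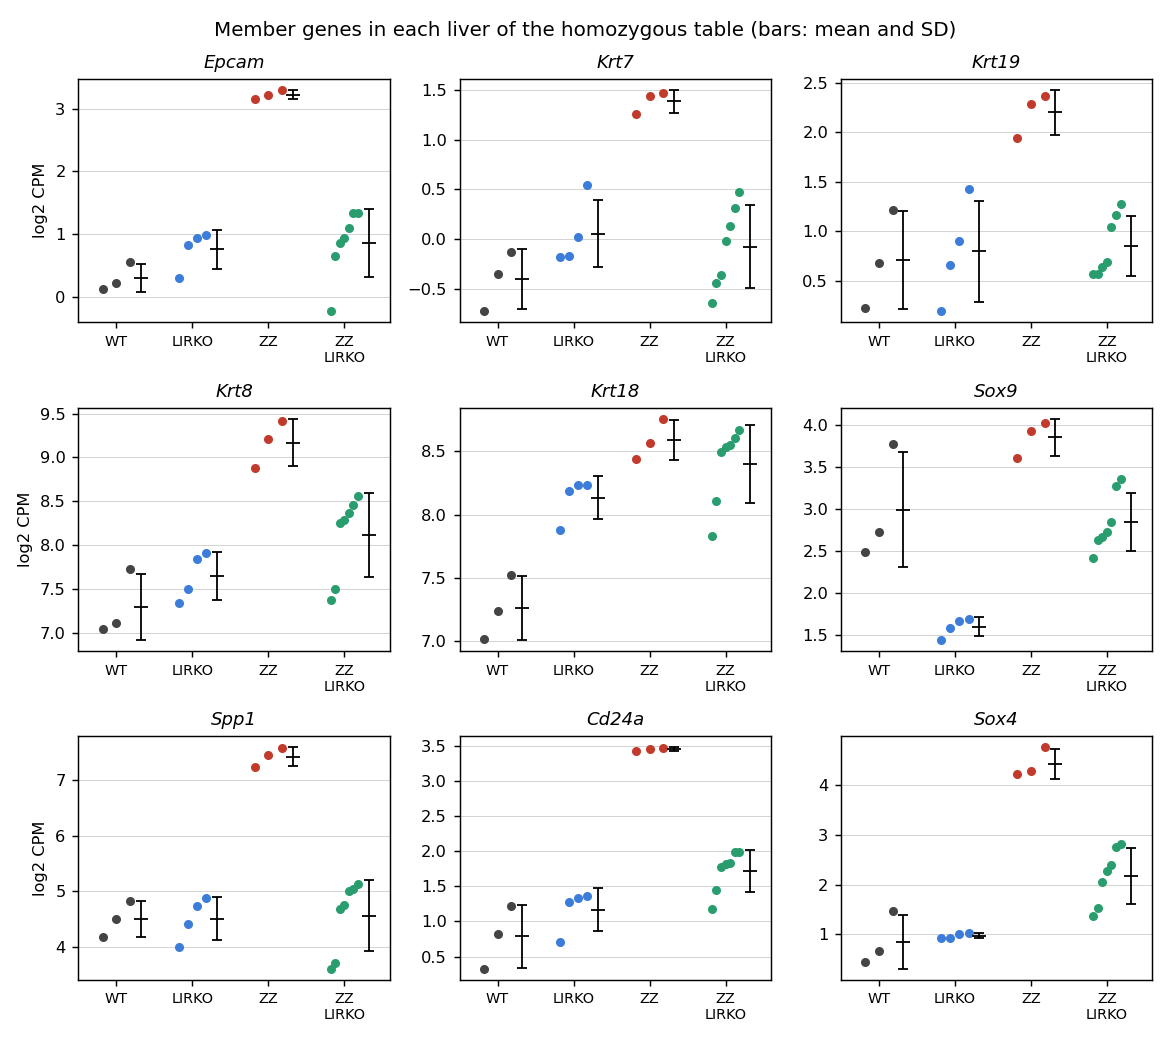
Log2 CPM (vertical axis) of the 9 genes in each liver of the homozygous table, with 1 point per mouse drawn from low to high within a group and bars for the mean and SD (WT n = 3, LIRKO n = 4, ZZ n = 3, ZZ LIRKO n = 7). The 3 ZZ livers lie above every other liver for Epcam, Krt7, Krt19, Krt8, Spp1, Cd24a and Sox4, while Krt18 and Sox9 overlap with at least 1 other group.

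Epcam encodes a cell adhesion protein of the cholangiocyte surface that mature hepatocytes lack. The 3 ZZ livers stood at 3.16, 3.21 and 3.30 log2 CPM and the 3 WT livers at 0.12, 0.23 and 0.56. The groups lay far apart and each was narrow, with a difference of 2.92 ± 0.32 (SE, adjusted p = 8.06e-06), or 7.56-fold. In the 4 LIRKO livers Epcam was 0.31, 0.82, 0.93 and 0.99, and in the 7 ZZ LIRKO livers it ran from -0.23 through a median of 0.94 to 1.34. Both LIRKO groups thus lay near WT and overlapped each other, and none of their livers came within 1 log2 unit of a ZZ liver. ZZ LIRKO was lower than ZZ by -2.37 ± 0.27 (adjusted p = 1.76e-05), a 5.16-fold difference, and its difference from LIRKO was 0.09 ± 0.24 (adjusted p = 0.851).

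Cd24a encodes a small glycosylated surface protein carried by cholangiocytes, progenitor-like liver cells and also by B cells and neutrophils. Its ZZ values were 3.42, 3.46 and 3.48 log2 CPM, against 0.33, 0.82 and 1.22 in WT and 0.71, 1.27, 1.34 and 1.36 in LIRKO. ZZ LIRKO ran from 1.18 through a median of 1.82 to 1.99. The ZZ livers were almost identical to each other and above all other livers, while the lowest ZZ LIRKO livers overlapped WT and LIRKO. The change was 2.67 ± 0.24 from WT to ZZ (adjusted p = 2.12e-06, 6.35-fold) and -1.74 ± 0.21 from ZZ to ZZ LIRKO (adjusted p = 2.70e-05, 3.33-fold). ZZ LIRKO exceeded LIRKO by 0.55 ± 0.19 without passing (adjusted p = 0.0708), and this difference passed without ZZ LIRKO mouse 1876 (0.64, adjusted p = 0.0280) and with voom weights on the recovered reads (0.59, adjusted p = 0.0384).

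Krt19 and Krt7 encode the keratins used in pathology to stain bile ducts. Krt19 was 1.95, 2.29 and 2.37 log2 CPM in ZZ, 0.23, 0.68 and 1.22 in WT, 0.19, 0.66, 0.90 and 1.43 in LIRKO, and 0.57 to 1.28 with a median of 0.69 in ZZ LIRKO. Krt7 was 1.26, 1.44 and 1.47 in ZZ, -0.73, -0.35 and -0.13 in WT, -0.18, -0.17, 0.03 and 0.54 in LIRKO, and -0.65 to 0.48 with a median of -0.02 in ZZ LIRKO. For both keratins the ZZ livers stood above all others, and WT, LIRKO and ZZ LIRKO shared 1 range. Krt19 rose by 1.49 ± 0.30 in ZZ (adjusted p = 0.00167) and ZZ LIRKO stood below ZZ by -1.35 ± 0.26 (adjusted p = 0.00115). Krt7 rose by 1.79 ± 0.30 (adjusted p = 3.40e-04) and was lower by -1.47 ± 0.25 (adjusted p = 5.18e-04). These are scarce transcripts: Krt7 was read 34 to 43 times per WT library and 115 to 191 times per ZZ library. The rise of Krt19 did not pass without the livers with Prss2 (1.11), where WT is 1 liver. With 1 added to each CPM the rise of Krt7 was 1.04 and its fall from ZZ to ZZ LIRKO was -0.88, and both still passed.

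Krt8 and Krt18 encode the keratin pair of hepatocytes, which cholangiocytes share and which builds up in hepatocytes under several kinds of injury. Krt8 was 8.88, 9.22 and 9.42 log2 CPM in ZZ, 7.05, 7.11 and 7.73 in WT, 7.34, 7.50, 7.84 and 7.91 in LIRKO, and 7.38 to 8.56 with a median of 8.29 in ZZ LIRKO. It rose by 1.87 ± 0.29 in ZZ (adjusted p = 1.95e-04, 3.67-fold) and ZZ LIRKO stood below ZZ by -1.06 ± 0.25 (adjusted p = 0.00474). Krt8 levels of ZZ LIRKO thus lay below every ZZ liver and reached into the LIRKO range. Krt18 was 8.44, 8.57 and 8.76 in ZZ and 7.02, 7.24 and 7.52 in WT, but also 7.88, 8.19, 8.23 and 8.24 in LIRKO, and 7.83 to 8.67 with a median of 8.54 in ZZ LIRKO. Krt18 was thus higher in LIRKO alone, by 0.87 ± 0.18 (adjusted p = 0.00227), as well as in ZZ, by 1.33 ± 0.19 (adjusted p = 1.12e-04). It was the member that did not pass between ZZ LIRKO and ZZ (-0.19 ± 0.16, adjusted p = 0.421). The LIRKO change of Krt18 did not pass without the livers with Prss2 (0.61), where WT is 1 liver. Nor did it pass with the mean of the pancreas genes as a covariate (0.69, adjusted p = 0.0529).

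Sox9 and Sox4 encode related transcription factors, and Sox9 marks biliary cells and periportal hepatocytes that express biliary genes. Sox4 was 4.23, 4.28 and 4.77 log2 CPM in ZZ, 0.44, 0.66 and 1.47 in WT, 0.93, 0.94, 1.01 and 1.02 in LIRKO, and 1.37 to 2.81 with a median of 2.28 in ZZ LIRKO. Every ZZ liver lay above every ZZ LIRKO liver, and every ZZ LIRKO liver lay above every LIRKO liver. Sox4 rose by 3.57 ± 0.34 in ZZ (adjusted p = 3.05e-06, 11.9-fold), ZZ LIRKO stood below ZZ by -2.25 ± 0.29 (adjusted p = 4.94e-05) and was higher by 1.20 ± 0.26 in ZZ LIRKO than in LIRKO (adjusted p = 0.00888). Sox4 thus rose with the transgene in livers with and without the insulin receptor, by unequal amounts, as the test of the interaction below shows.

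Sox9 was 3.60, 3.93 and 4.03 log2 CPM in ZZ, 2.48, 2.72 and 3.77 in WT, 1.44, 1.58, 1.67 and 1.69 in LIRKO, and 2.41 to 3.35 with a median of 2.72 in ZZ LIRKO. WT mouse 1564 lay among the ZZ livers, and the LIRKO livers lay below all others. Sox9 was lower in LIRKO than in WT by -1.39 ± 0.26 (adjusted p = 0.00113, 2.63-fold) and lower in ZZ LIRKO than in ZZ by -1.01 ± 0.24 (adjusted p = 0.00497). With the transgene it was higher in ZZ LIRKO than in LIRKO by 1.25 ± 0.22 (adjusted p = 0.00208), and higher in ZZ than in WT by 0.86 ± 0.28 (adjusted p = 0.0293). The last change is the least firm of the 9. It did not pass in a fit of these 2 groups alone (0.86, adjusted p = 0.0906), without the livers with Prss2 (0.21, adjusted p = 0.722), with the pancreas covariate (0.55, adjusted p = 0.159), or without WT mouse 1586 (0.73), WT mouse 1601 (0.61), ZZ mouse 1682 (0.82) or ZZ mouse 1809 (0.77). The LIRKO change of Sox9 passed without the livers with Prss2 as well, at -2.17 (adjusted p = 5.09e-04), where WT is mouse 1564 alone.

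Spp1 encodes osteopontin, a secreted phosphoprotein that cholangiocytes make in the healthy liver and that macrophages, stellate cells and injured hepatocytes can also make. It was 7.23, 7.45 and 7.56 log2 CPM in ZZ, 4.17, 4.50 and 4.83 in WT, 4.00, 4.42, 4.73 and 4.87 in LIRKO, and 3.61 to 5.12 with a median of 4.75 in ZZ LIRKO. The ZZ livers stood over 2 log2 units above all others, and the remaining 3 groups overlapped. Spp1 rose by 2.91 ± 0.36 in ZZ (adjusted p = 3.08e-05, 7.53-fold) and ZZ LIRKO stood below ZZ by -2.86 ± 0.31 (adjusted p = 1.17e-05, 7.25-fold). Its difference between ZZ LIRKO and LIRKO was 0.05 ± 0.28 (adjusted p = 0.930), and between LIRKO and WT it was 0.00 ± 0.34 (adjusted p = 0.998).

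ZZ LIRKO livers were compared with ZZ livers for the effect of insulin receptor loss under 2 copies of the transgene, and 8 of the 9 genes were lower, against 13.6% of all genes called lower and 13.2% called higher. The median change of the 9 genes was -1.47, beside -0.01 over all genes. ZZ LIRKO against LIRKO gave 2 of 9 higher, Sox4 and Sox9 (6.83% of all genes were higher there and 3.73% lower). LIRKO against WT gave 1 higher (Krt18) and 1 lower (Sox9), where 13.8% and 14% of all genes were called. Each of the 4 groups serves in 2 of these comparisons, so the comparisons are not independent of each other.

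**Figure D2:**
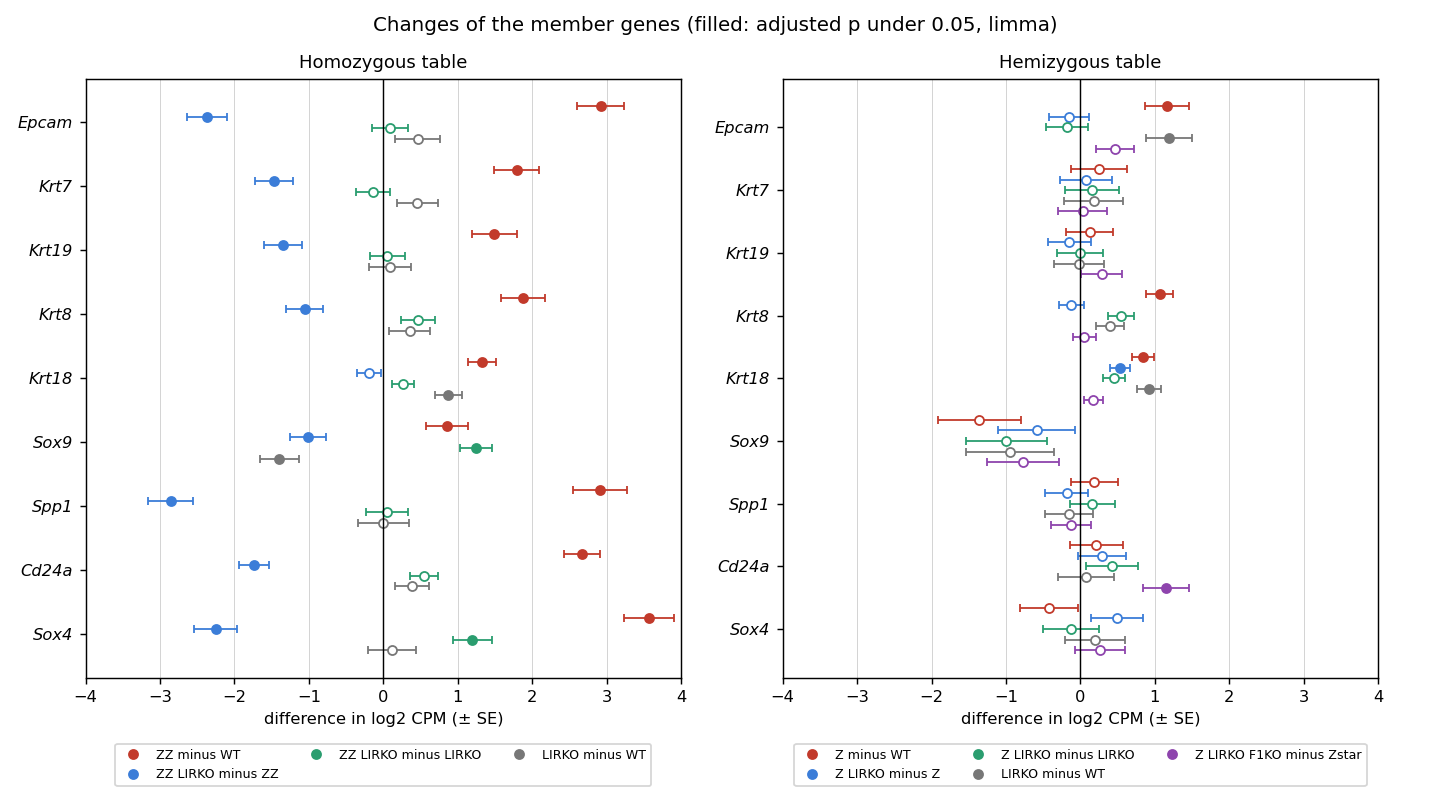
Difference in log2 CPM (horizontal axis, bars ± SE) of each gene in 4 comparisons of the homozygous table and 5 of the hemizygous table, with filled points for an adjusted p under 0.05. In the homozygous panel the ZZ minus WT points lie between 0.86 and 3.57 and the ZZ LIRKO minus ZZ points between -2.86 and -0.19, while most points of the hemizygous panel lie within 1 unit of 0.

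The difference between the transgene effects with and without the insulin receptor was tested as an interaction, and 8 of 9 genes passed with a negative value, where 4.72% of all genes were called lower and 3.03% higher. A negative value means that the transgene raised the gene by less in LIRKO livers. Spp1 (-2.86 ± 0.46, adjusted p = 0.00227) and Epcam (-2.83 ± 0.40, adjusted p = 0.00103) had the largest, followed by Sox4 (-2.37 ± 0.43, adjusted p = 0.00470) and Cd24a (-2.12 ± 0.31, adjusted p = 0.00119). Among the keratins it was -1.92 for Krt7, -1.44 for Krt19, -1.41 for Krt8 and -1.06 for Krt18, with adjusted p from 0.00679 to 0.0320. Sox9 did not pass (0.39 ± 0.35, adjusted p = 0.532). Without the livers with Prss2, where WT is 1 liver, 2 genes passed (Epcam and Cd24a). The others stood at -2.51 for Spp1, -1.86 for Sox4, -1.71 for Krt7, -1.12 for Krt8, -1.06 for Krt19 and -0.87 for Krt18, with adjusted p from 0.0611 to 0.261. With the pancreas covariate or without ZZ mouse 1682, 5 passed, Krt19, Krt8 and Krt18 being lost. Krt19 and Krt8 were each lost on leaving out any of 6 single livers.

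The 7 ZZ LIRKO livers were not uniform. Mice 1876 and 1877 had the lowest values of the group for Spp1 (3.61 and 3.70), Krt8 (7.50 and 7.38), Krt18 (8.11 and 7.83), Sox4 (1.37 and 1.53) and Cd24a (1.18 and 1.45), and the highest for Sox9 (3.27 and 3.35). For Spp1 the other 5 livers lay between 4.68 and 5.12. These were also the 2 libraries of that group with the fewest reads, at 38.2 and 46.2 M, and the part of depth in these values was not tested. The count of genes lower in ZZ LIRKO than in ZZ was 8 when any 1 liver of either group was left out.

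Dividing CPM by the joint length of all annotated exons of a gene allows a rough comparison of levels between genes. This length can exceed that of the transcript in use, which makes a value too low. It was longest for Krt7, at 7049 bases. Mean CPM per kilobase of exon in WT livers was 108 ± 19.0 (SD, n = 3) for Krt18, 82.1 ± 22.7 for Krt8 and 13.99 ± 3.17 for Spp1, and between 0.109 and 2.08 for the other 6. In ZZ livers Krt8 (298 ± 54.7) exceeded Krt18 (269 ± 30.2) by less than their SDs, Spp1 followed at 104 ± 12.1, and the other 6 lay between 0.372 (Krt7) and 4.54 (Sox4). Sox4, Epcam and Cd24a in ZZ, at 4.54 ± 0.980, 4.26 ± 0.204 and 4.25 ± 0.0845, did not differ beyond their spread. The keratins of hepatocytes were thus read at levels far above the keratins of ducts in both groups. The gap between Krt8 and Krt18 differed between the tables: in the hemizygous table the same WT mice gave 35.7 ± 8.74 for Krt8 and 90.7 ± 17.1 for Krt18, so the level of Krt8 against Krt18 is uncertain.

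Across the 17 libraries of the homozygous table the 9 genes were correlated with each other, with a median Pearson r of 0.81 over 36 pairs and a range from 0.14 to 0.97. Once group means were removed the median was 0.48 and the range -0.26 to 0.91, the highest being the pair Krt8 and Krt18, whose proteins form filaments together. The libraries share groups, scaling and sequencing depth, and these values describe the libraries only. The 9 genes themselves were left out of the search for nearest genes. Epcam lay closer to Spp1 (r = 0.96) and Cd24a closer to Sox4 (r = 0.970) than to the genes named here. Among the remaining genes the one most like Epcam and Spp1 over these 17 libraries was Ehf (r = 0.94 and 0.96). Ehf is an epithelial transcription factor of the cholangiocyte list. Krt19 was nearest to Tspan8 (0.95), Cd24a to Bicc1 (0.97), Sox4 to Spire2 (0.98), Krt8 to the collagen gene Col3a1 (0.95), Krt18 to Uap1l1 (0.96) and Sox9 to the histone gene Hist1h1c (0.93). Anxa2 stood among the nearest 5 genes of Epcam, Krt8 and Cd24a.

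Other genes of cholangiocytes were followed as a list of 38, of which 31 could be tested in the homozygous table. In ZZ against WT 19 were higher, 1 was lower and 11 did not pass, with a median change of 1.15. The 4 with the smallest p were the annexins Anxa5 (1.77 ± 0.13, adjusted p = 1.41e-07) and Anxa2 (2.83 ± 0.28, adjusted p = 3.51e-06), the galectin Lgals3 (3.16 ± 0.27, adjusted p = 1.40e-06) and Bicc1 (2.31 ± 0.22, adjusted p = 2.61e-06), an RNA-binding protein whose loss gives cystic kidneys and ducts in mice. Annexins and Lgals3 are also expressed by macrophages and stromal cells. In ZZ LIRKO against ZZ 17 of the 31 were lower and 3 higher, led by Pkhd1 (-1.52 ± 0.16, adjusted p = 1.21e-05), which encodes fibrocystin of the biliary cilium, and Ehf (-2.65 ± 0.30, adjusted p = 1.59e-05), with Anxa5 (-0.86) and Anxa2 (-1.86). The interaction gave 11 lower and 1 higher, with Anxa5 (-1.22), Cldn4 (-4.83), Anxa2 (-2.18) and Bicc1 (-1.65) as the 4 with the smallest p.

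Ehf was -0.21 ± 0.51 log2 CPM (SD, n = 3) in WT, 2.66 ± 0.19 in ZZ and 0.01 ± 0.52 (SD, n = 7) in ZZ LIRKO. Lgals3, in contrast, was 2.12 ± 0.15 in WT and 5.28 ± 0.14 in ZZ and still 4.34 ± 0.52 in ZZ LIRKO, above the 2.90 ± 0.10 of LIRKO (1.43 ± 0.21, adjusted p = 6.08e-04). Pkhd1 was lower in ZZ LIRKO (2.34 ± 0.32) than even in WT (3.10 ± 0.16), and LIRKO stood at 2.33 ± 0.15. The list thus held genes that returned to their LIRKO level in ZZ LIRKO and genes that stayed above it, and 5 of the 31 were higher in ZZ LIRKO than in LIRKO with none lower.

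**Figure D3:**
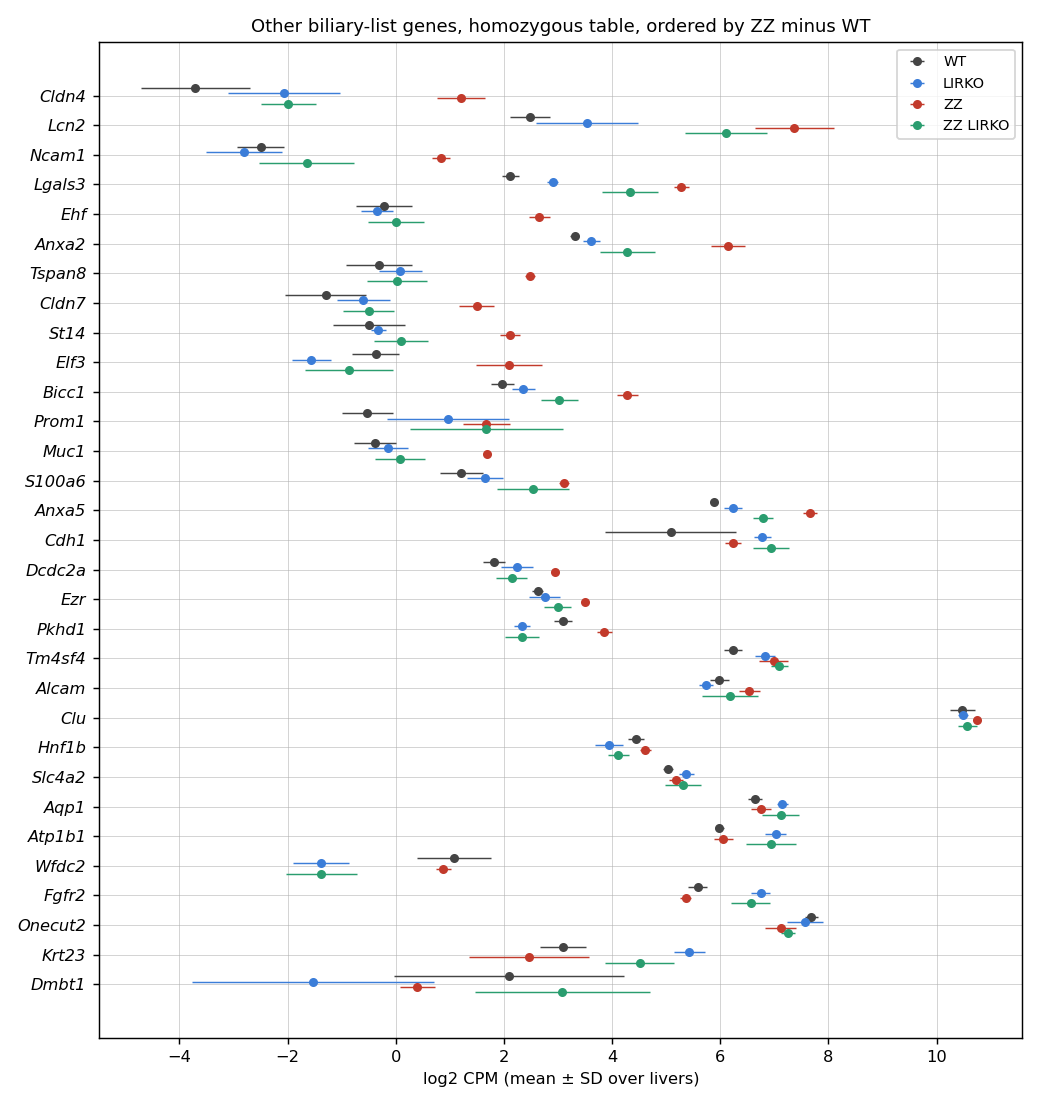
Mean log2 CPM (horizontal axis, bars ± SD) of the 31 further cholangiocyte-list genes tested in WT (n = 3), LIRKO (n = 4), ZZ (n = 3) and ZZ LIRKO (n = 7) livers, ordered by the mean change from WT to ZZ. Ehf stands at 2.66 in ZZ and at 0.01 in ZZ LIRKO, whereas Krt23 and Fgfr2, near the lower end, are higher in both LIRKO groups than in WT and ZZ.

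Krt23, a keratin of biliary cells that injured hepatocytes can also express, moved with the insulin receptor and FOXO1 knockouts. In the homozygous table LIRKO exceeded WT by 2.32 ± 0.45 (adjusted p = 0.00126). In the hemizygous table it was 5.43 ± 0.21 (SD, n = 4) log2 CPM in LIRKO and 3.09 ± 0.65 (n = 3) in WT, and 5.37 ± 0.40 (n = 4) in Z LIRKO and 2.16 ± 0.28 (n = 5) in Z. In Z LIRKO F1KO livers it fell to -0.21 ± 0.65 (n = 5), a difference of -5.58 ± 0.30 from Z LIRKO (adjusted p = 2.94e-12). The difference of the LIRKO effect between FOXO1 knockout and control pairs was -4.50 ± 0.42 (adjusted p = 2.45e-07). None of the 9 member genes passed that test, as given below.

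Genes that signal to or within ducts, from the NOTCH, TGF-beta, HIPPO and TWEAK pathways, were followed as a second list, with 24 of 26 tested in the homozygous table. In ZZ against WT 9 were higher and 4 lower. Tgfb2, a TGF-beta ligand, rose by 3.16 ± 0.32 (adjusted p = 4.20e-06) and fell back in ZZ LIRKO (-2.02 ± 0.27 against ZZ, adjusted p = 6.92e-05). Ccn2, a matricellular target of TGF-beta and YAP, rose by 2.30 ± 0.33 (adjusted p = 9.36e-05), Tnfsf12, the ligand TWEAK, by 1.10 ± 0.16 (adjusted p = 1.04e-04) and Tgfbr2, a TGF-beta receptor, by 1.11 ± 0.20 (adjusted p = 5.58e-04). In ZZ LIRKO against ZZ 3 of the 24 were lower and 3 higher, a share near that of all genes (13.6% lower and 13.2% higher): Ankrd1, a YAP target, was lower by -1.89 ± 0.33 and the NOTCH ligand Jag1 by -0.79 ± 0.14, while Tgfbr2 was higher by 0.74 ± 0.17. In LIRKO against WT 8 of the 24 were lower and 3 higher, where 14% of all genes were called lower and 13.8% higher. The 3 higher were Tgfbr2 (1.84 ± 0.18), Tnfsf12 (1.52 ± 0.15) and the NOTCH receptor Notch3 (2.43 ± 0.28, adjusted p = 1.86e-05).

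Osteopontin acts through integrins and CD44, and 9 of 10 such genes could be tested. Of these 5 were higher and 1 lower in ZZ than in WT, with Cd44 up by 1.66 ± 0.20 (adjusted p = 2.48e-05) and Itga8, an integrin of stellate cells, by 1.23 ± 0.15 (adjusted p = 3.14e-05). In ZZ LIRKO against ZZ 3 were higher and 3 lower. Cd44 was 4.11 ± 0.22 log2 CPM (SD, n = 3) in ZZ and 4.00 ± 0.32 (n = 7) in ZZ LIRKO, while its ligand gene Spp1 was 7.41 ± 0.17 and 4.56 ± 0.64. Itgb3 (1.67 ± 0.26, adjusted p = 2.36e-04) and Itga4 (0.68 ± 0.16, adjusted p = 0.00449) were higher in ZZ LIRKO than in ZZ, and Itga8 was lower (-0.64 ± 0.13, adjusted p = 0.00169).

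Keratins 8 and 18 collect with other proteins in Mallory bodies, inclusions of injured hepatocytes. A list of 9 genes was followed that mixes Mallory body genes with further keratins and Vim, and 6 of these could be tested. In ZZ against WT 3 were higher and none lower: Vim, for vimentin (1.38 ± 0.20, adjusted p = 1.13e-04), Sqstm1, for the cargo receptor p62 (0.84 ± 0.14, adjusted p = 3.39e-04), and the crosslinking enzyme gene Tgm2 (1.22 ± 0.42, adjusted p = 0.0372). Vim is a gene of mesenchymal cells and not of hepatocytes. In ZZ LIRKO Sqstm1 was lower than in ZZ (-0.52 ± 0.12, adjusted p = 0.00415) and the cytolinker gene Plec was higher (0.33 ± 0.12, adjusted p = 0.0490).

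Markers of other cells moved with the 9 genes in ZZ livers, and their part in the results was not tested. Of the stellate cell list 9 of 10 were higher in ZZ than in WT with none lower, and its summed level was 520 to 588 CPM in ZZ, 150 to 173 in WT, 176 to 205 in LIRKO and 192 to 399 in ZZ LIRKO. Of the macrophage list 11 of 16 were higher, with sums of 584 to 668 CPM in ZZ, 293 to 391.9 in WT, 427 to 552 in LIRKO and 522 to 780 in ZZ LIRKO. Stellate sums of ZZ LIRKO lay between those of WT and ZZ, and macrophage sums of ZZ LIRKO overlapped those of ZZ. Of the B cell and neutrophil list, cells that can carry Cd24a, 6 of 8 were higher, with sums of 19.5 to 27.0 CPM in ZZ, 5.01 to 10.3 in WT, 12.7 to 21.3 in LIRKO and 22.8 to 48.4 in ZZ LIRKO. For the mesothelial list, cells of the liver capsule that express several keratins, 1 of 4 was higher, and sums were 5.73 to 5.78 CPM in ZZ, 3.62 to 5.04 in WT, 3.45 to 8.28 in LIRKO and 1.26 to 7.21 in ZZ LIRKO. None of the mesothelial, stellate or endothelial markers was at 0 reads in any library of the table, and in WT Mmp12 of the macrophage list and Retnlg of the neutrophils were at 0 in 1 and 2 libraries.

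Of the endothelial list 1 of 6 was higher in ZZ and 2 lower, the summed erythroid genes ran over 226 to 427 CPM in ZZ and 201 to 315 in WT, and of the hepatocyte list 2 of 10 were lower and none higher. Summed hepatocyte genes were 119791 to 129872 CPM in WT, 58049 to 81486 in ZZ, 63012 to 82056 in LIRKO and 73887 to 100368 in ZZ LIRKO, so WT lay above the other 3 groups, which overlapped. In ZZ LIRKO against ZZ 5 of 6 endothelial genes were higher and none lower, with sums of 235 to 310 CPM against 175 to 192, 4 of 10 hepatocyte genes were higher and 2 lower, 6 of 10 stellate genes were lower and none higher, and 4 of 16 macrophage genes were higher and 4 lower. The part of these cells in the fall of the 8 genes was not tested. The pancreas list, whose organ also has ducts with Krt19, Krt7 and Sox9, had 1 of 13 lower in ZZ and none higher, and its summed level was 30.3 to 901 CPM in WT, 14.0 to 45.6 in ZZ, 11.2 to 12.6 in LIRKO and 10.4 to 15.0 in ZZ LIRKO. Pancreas genes were thus highest in 2 WT livers. Without the livers with Prss2, where WT is mouse 1564 alone, Krt19 (1.11) and Sox9 (0.21) did not pass in ZZ against WT. With 1 WT liver a smaller effect cannot be told from a loss of power.

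With 1 copy of the transgene the members that passed against WT were the hepatocyte keratins and Epcam. In Z against WT Krt8, Krt18 and Epcam were higher and none lower, that is 3 of 9, where 5.89% of all 13596 genes tested were called higher and 4.54% lower. The median change of the 9 genes was 0.21, beside -0.01 over all genes. In Zstar against WT 2 of 9 were higher, Krt8 and Krt18 (8.58% of all genes were higher, 7.47% lower). These WT mice and the Zstar mice carry different source labels (IRZZ and F1IRZZ), and what these labels stand for is not given in the sources used here. Genotype and source label cannot be told apart in that comparison.

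**Figure D4:**
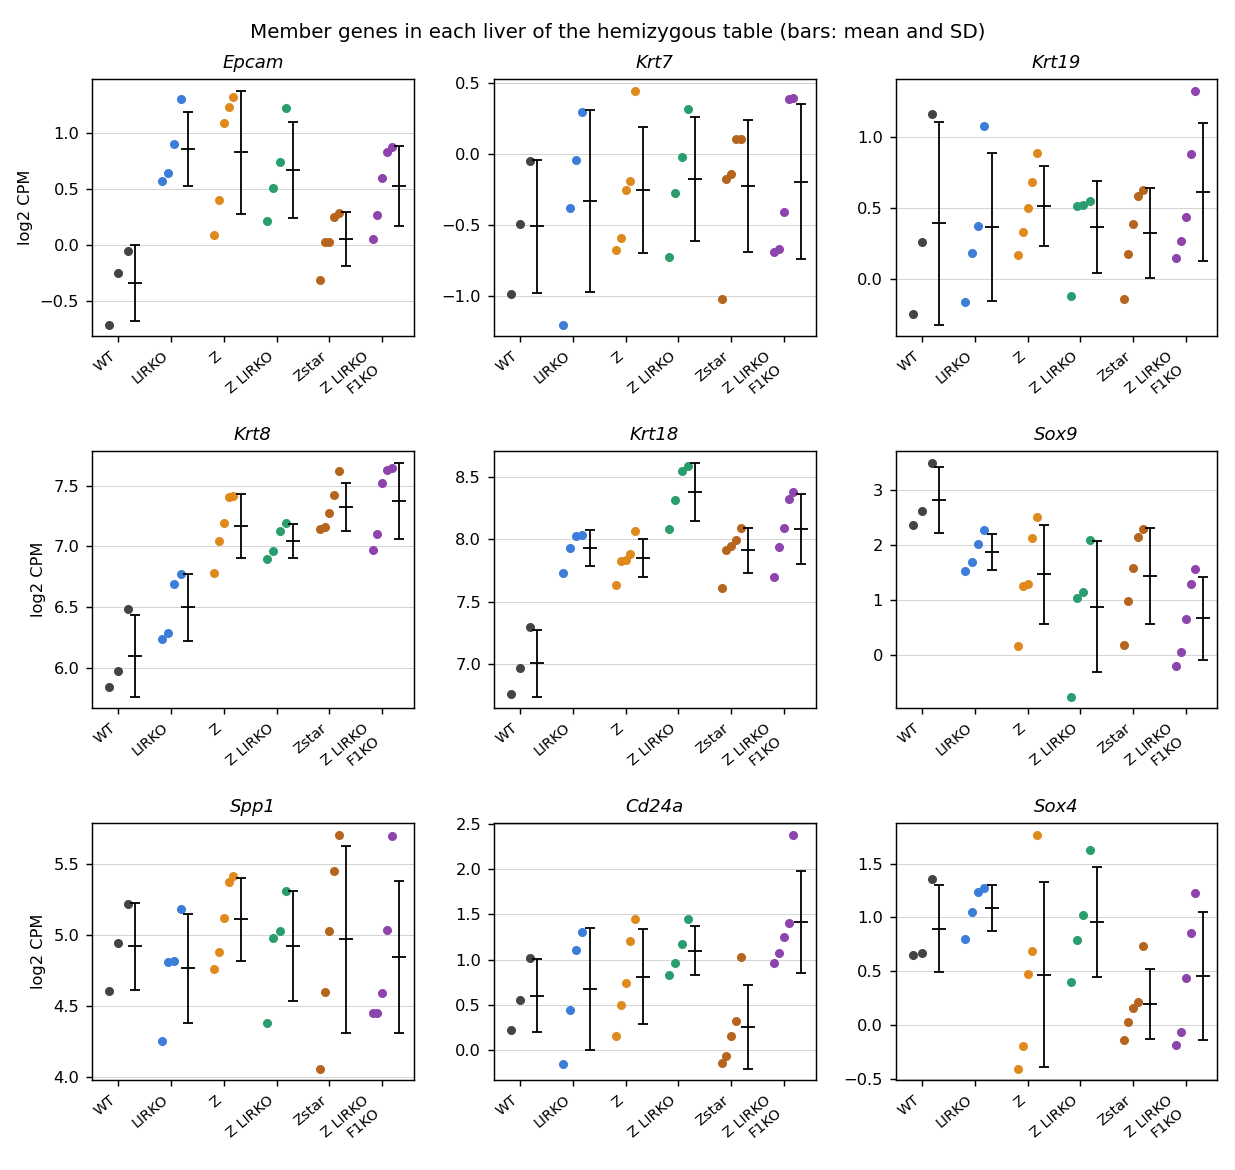
Log2 CPM (vertical axis) of the 9 genes in each liver of the hemizygous table, with 1 point per mouse drawn from low to high within a group and bars for the mean and SD (WT n = 3, LIRKO n = 4, Z n = 5, Z LIRKO n = 4, Zstar n = 5, Z LIRKO F1KO n = 5). Krt18 lies at 6.76 to 7.29 in WT and at 7.61 or more in every other liver, while Spp1, Krt19 and Krt7 overlap in all groups.

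Krt18 was 6.76, 6.97 and 7.29 log2 CPM in WT, 7.73, 7.93, 8.02 and 8.04 in LIRKO, and 7.64, 7.82, 7.84, 7.88 and 8.07 in Z. It was 7.61, 7.92, 7.95, 7.997 and 8.09 in Zstar, 8.08, 8.31, 8.55 and 8.59 in Z LIRKO, and 7.70, 7.94, 8.09, 8.32 and 8.38 in Z LIRKO F1KO. All other livers lay above the WT livers, and Z LIRKO lay highest, with its lowest liver just above the highest Z liver. The change against WT was 0.84 ± 0.15 in Z (adjusted p = 8.12e-04), 0.91 ± 0.15 in Zstar (adjusted p = 2.35e-04) and 0.92 ± 0.16 in LIRKO (adjusted p = 1.46e-04), and Z LIRKO exceeded Z by 0.53 ± 0.14 (adjusted p = 0.00469). Without the livers with Prss2, where WT is 1 liver, these 4 changes were 0.50, 0.61, 0.64 and 0.40, and none passed.

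Krt8, its filament partner, was 5.85, 5.98 and 6.48 in WT, 6.24, 6.29, 6.69 and 6.77 in LIRKO, and 6.79, 7.04, 7.19, 7.41 and 7.41 in Z. It was 7.14, 7.16, 7.27, 7.42 and 7.62 in Zstar, 6.90, 6.97, 7.13 and 7.19 in Z LIRKO, and 6.97, 7.10, 7.52, 7.63 and 7.64 in Z LIRKO F1KO. Every liver with the transgene lay above every liver without it. Krt8 rose by 1.07 ± 0.18 in Z (adjusted p = 4.40e-04) and by 1.22 ± 0.18 in Zstar (adjusted p = 6.14e-05), its LIRKO change was 0.40 ± 0.19 (adjusted p = 0.127), and Z LIRKO exceeded LIRKO by 0.55 ± 0.17 (adjusted p = 0.113). Without WT mouse 1564 the LIRKO change passed (0.59, adjusted p = 0.0438). Without the livers with Prss2, where WT is 1 liver, the rises in Z (0.62) and Zstar (0.82) did not pass.

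Epcam was -0.71, -0.25 and -0.05 log2 CPM in WT, 0.57, 0.64, 0.90 and 1.30 in LIRKO, 0.09, 0.40, 1.09, 1.23 and 1.32 in Z and -0.31, 0.03, 0.03, 0.25 and 0.29 in Zstar. It was 0.21, 0.51, 0.74 and 1.22 in Z LIRKO and 0.06, 0.26, 0.60, 0.83 and 0.87 in Z LIRKO F1KO. WT and Zstar lay lowest and overlapped, and the other groups shared 1 range. These values rest on few reads, 12 to 17 per WT library and 19 to 59 per Z library. The change was 1.16 ± 0.29 in Z (adjusted p = 0.0117) and 1.19 ± 0.31 in LIRKO (adjusted p = 0.00641), and the difference of Zstar from Z was -0.77 ± 0.25 (adjusted p = 0.0554). The Z change did not pass in a fit of Z and WT alone (1.16, adjusted p = 0.0704) or without WT mouse 1586 (0.97, adjusted p = 0.0817). Without the livers with Prss2, where WT is 1 liver, neither the Z change (0.77) nor the LIRKO change (0.90) passed. In the deeper homozygous libraries of the same 7 mice LIRKO exceeded WT by 0.46 ± 0.30 (adjusted p = 0.262). With 1 added to each CPM the 2 changes of Epcam were 0.64 and 0.65 and still passed.

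The remaining 6 genes did not pass in Z or Zstar against WT. Spp1, 7.53-fold higher in ZZ than in WT, differed by 0.19 ± 0.31 between Z and WT (adjusted p = 0.759), with 4.76 to 5.42 log2 CPM in Z and 4.61 to 5.22 in WT. Sox4 differed by -0.43 ± 0.39 (adjusted p = 0.535), Cd24a by 0.21 ± 0.36 (adjusted p = 0.762), Krt7 by 0.26 ± 0.38 (adjusted p = 0.724) and Krt19 by 0.12 ± 0.32 (adjusted p = 0.856). Sox9 differed by -1.36 ± 0.56 in Z (adjusted p = 0.127) and -1.39 ± 0.56 in Zstar (adjusted p = 0.0949), and its livers spread widely, over 0.16 to 2.50 in Z and 2.35 to 3.50 in WT. With the pancreas covariate both Sox9 changes passed (-1.78, adjusted p = 0.0472, and -1.80, adjusted p = 0.0372). In ZZ against WT the same gene was higher, and the difference between 1 and 2 copies was not tested, since they stand in tables scaled separately.

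Loss of the insulin receptor gave 2 of 9 genes higher in LIRKO against WT, Krt18 and Epcam (11.8% of all genes were called higher there and 12% lower), and 1 of 9 higher in Z LIRKO against Z, Krt18, where 16.7% were higher and 17.7% lower. In Z LIRKO against Z 6 of 6 endothelial genes were also higher, with 7 of 16 macrophage, 4 of 7 B cell and neutrophil and 3 of 9 stellate genes and none of these lower, and their part in the Krt18 change was not tested. Sox4 also passed in Z LIRKO against Z without Z mouse 1410, at 0.82 (adjusted p = 0.0499), and without the livers with Prss2, at 1.06 (adjusted p = 0.0476), beside 0.49 ± 0.36 with all livers. Leaving out any 1 liver moved it between 0.27 and 0.82 (adjusted p from 0.0499 to 0.634), the lowest values being without Z LIRKO mouse 1450 or Z mouse 1442, so its size rests on single livers. Sox9 was lower in LIRKO than in WT by -0.95 ± 0.59 (adjusted p = 0.254), and passed in a fit of these groups alone (-0.95, adjusted p = 0.0396). Spp1, Krt19, Krt7 and Cd24a did not pass, with differences between Z LIRKO and Z from -0.19 to 0.29.

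None of the 9 genes passed in Z LIRKO against LIRKO by limma (0.485% of all genes were higher and 0.61% lower), nor with voom weights. At an unadjusted p under 0.05 there were 2, Krt18 and Krt8, beside 2110 of all 13596 genes. None passed for the interaction of Z and LIRKO (0.199% of all genes called in either direction), nor with voom weights. At an unadjusted p under 0.05 there were 2, Epcam and Krt8, beside 1381 of all 13596 genes. The interaction of Epcam was -1.34 ± 0.41 (adjusted p = 0.254). None passed in Zstar against Z (9.47% of all genes), nor with voom weights. At an unadjusted p under 0.05 there was 1, Epcam, beside 3415 of all 13596 genes. In Zstar against Z Epcam passed without Z mouse 1411 (-0.87, adjusted p = 0.0390) or Z mouse 1443 (-0.95, adjusted p = 0.0214).

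Z LIRKO F1KO livers were compared with Zstar livers for the joint loss of the insulin receptor and FOXO1. Of the 9 genes 1 was higher, a share near that of all genes (12.4% called higher and 11.1% lower). It was Cd24a, by 1.15 ± 0.31 (adjusted p = 0.00844, 2.22-fold). Cd24a was 0.97, 1.07, 1.25, 1.41 and 2.38 log2 CPM in Z LIRKO F1KO and -0.14, -0.06, 0.15, 0.32 and 1.02 in Zstar. The groups overlapped by 1 liver, Zstar mouse 249. In the other groups Cd24a was 0.22, 0.56 and 1.02 in WT, -0.16, 0.44, 1.11 and 1.31 in LIRKO, 0.16 to 1.45 in Z and 0.83 to 1.45 in Z LIRKO. With 1 added to each CPM its change was 0.74 and still passed. Beside it, 13 of 16 macrophage genes were higher in the same comparison, with sums of 763 to 1485 CPM in Z LIRKO F1KO and 363 to 450 in Zstar, and of the B cell and neutrophil list 3 of 7 were higher, with sums of 14.0 to 37.4 and 4.68 to 11.5 CPM. The part of these cells in the Cd24a change was not tested.

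No member passed in Z LIRKO F1KO against Z LIRKO (22.5% of all genes were called), nor with voom weights. At an unadjusted p under 0.05 there was 1, Krt18 (-0.30 ± 0.14), beside 4721 of all 13596 genes. The source labels differ between those groups (F1IRZZ and IRZZ), so FOXO1 loss and source label cannot be told apart there. None passed for the difference of the LIRKO effect between the FOXO1 knockout and control pairs (6.63% of all genes), nor with voom weights. None had an unadjusted p under 0.05, where 3063 of all 13596 genes did. The largest value there was that of Cd24a (0.86 ± 0.45, adjusted p = 0.261).

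Of the further cholangiocyte list 27 of 38 could be tested in the hemizygous table. In Z against WT 2 were higher, Atp1b1 (0.68 ± 0.16, adjusted p = 0.00655) and Anxa5 (0.57 ± 0.18, adjusted p = 0.0382), and none lower, with a median of 0.08. Of all genes 5.89% were called higher there and 4.54% lower, so the share higher was near that of all genes. In Zstar against WT 2 were lower, Krt23 (-2.01 ± 0.33) and Dmbt1 (-3.08 ± 1.05), and none higher. The share lower was near that of all genes (7.47% lower and 8.58% higher). LIRKO against WT gave 6 higher and 3 lower, where 11.8% of all genes were called higher and 12% lower. Atp1b1 (1.14 ± 0.17), Krt23 (2.35 ± 0.35) and Fgfr2 (1.16 ± 0.19) were up. Wfdc2, an epithelial secreted protein, was down (-3.16 ± 0.47, adjusted p = 2.75e-05). Z LIRKO against Z gave 7 higher and 1 lower, where 16.7% of all genes were called higher and 17.7% lower. Among them were the same Krt23 (3.21), Fgfr2 (0.94) and Wfdc2 (-2.57), and Cdh1, for E-cadherin (1.50 ± 0.33). Of the duct signals 2 of 22 were higher in Z and 2 lower, Ctgf (the gene named Ccn2 above, 1.11 ± 0.32) and Tnfsf12 (0.52 ± 0.17) against Foxa2 (-1.87 ± 0.27) and Jag1 (-0.87 ± 0.23).

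Over the 26 hemizygous libraries the 36 pairs of the 9 genes had a median Pearson r of 0.21, from -0.52 to 0.71, and within groups 0.27, from -0.15 to 0.84, again highest for Krt8 and Krt18. With the 9 genes left out of the search again, Epcam was nearest to Ogt (r = 0.81), Krt8 to Ctsd (0.91) and Krt18 to Arhgdia (0.85). Sox9 was nearest to Itga5 (0.78), Cd24a to Gimap8 (0.79) and Sox4 to Sstr2 (0.83). Spp1 was nearest to Ehf in this table as well (0.72), and Krt7 (0.65, Zfp959) and Krt19 (0.62, Snd1) had no closer neighbour. Ehf was thus first for Spp1 in both tables, which share 7 mice and are not independent.

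Levels cannot be set side by side across the tables. In the 7 mice read in both, Krt8 was higher by 1.17 ± 0.05 (SD, n = 7) log2 units in the homozygous table, in a range of 1.10 to 1.24, whereas Krt18 was higher by 0.22 ± 0.06 and Spp1 lower by -0.33 ± 0.13. On GRCm38 an antisense gene of the GENCODE annotation overlaps Krt8 (Gm36026), Krt7 (Gm671) and Sox4 (Gm26735), and Gm42793 overlaps Spp1 on its own strand. Krt8 also has 1 named pseudogene. The sources used here do not say whether counting used strand, so reads of these genes and their partners could not be told apart. Epcam, Krt19, Krt18, Sox9 and Cd24a had no overlapping gene.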

How the data were processed

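The authors deposited moderated log2 CPM values in 2 tables. The submitters' processing notes name STAR (2.0.4b), Subread, featureCounts (1.4.5) and GRCm38, without order, settings or strand rule in the sources used here. Whole reads plus 0.5, per effective library size, gave back 100% of the deposited log2 values within 0.01 reads, and CPM sums were computed from these. Repeated lines and 1 column that matched no sample label were left out.

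limma (3.58.1, R 4.3.3) was fitted over all groups of a table with 1 mean per group, two-sided, with a variance trend, and was tested on simulated data. Genes needed 0 log2 CPM in 3 libraries, and p was adjusted by Benjamini-Hochberg over all genes of a comparison (threshold 0.05). The labels give each replicate as 1 mouse. The members and 12 gene lists were chosen with earlier results of these data known. Named were the members, Insr and Foxo1, up to 4 genes with the smallest p per biliary list and comparison, and the nearest genes by correlation, of which 1 is not reported here. The levels of Alb, Ehf, Lgals3, Pkhd1, Krt23, Cd44, Prss2, Mmp12, Retnlg and the plotted Fgfr2 were chosen after their values were seen. Alternatives were read for the members only. They were no filter, 1 added to each CPM, voom weights on the recovered reads, the compared groups alone and median-of-ratios scaling. Further ones were no libraries above 0 log2 CPM of Prss2, the pancreas mean as a covariate, and each liver left out. Promoters came from RefSeq (GRCm38.p6) and overlaps from GENCODE.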

Additional observations from a re-analysis of the deposited data

Results flagged for a closer look

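In 63 combinations of a gene and a group of 4 to 10 livers, the lowest or highest liver was tested against the others, and 4 stood apart by Dixon's criterion, where chance gives about 1 in 20. Krt7 in Zstar mouse 251 was at -1.02 log2 CPM, with the other 4 livers between -0.18 and 0.11. Krt19 in Z LIRKO mouse 1412 was at -0.12, with the others between 0.52 and 0.55. In the homozygous table LIRKO mouse 1600 was lowest for Krt18 at 7.88, with the others between 8.19 and 8.24, and for Cd24a at 0.71, with the others between 1.27 and 1.36.

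The effect of the homozygous transgene differed between livers with and without the insulin receptor for 8 genes, by the interaction term of limma. The values were -2.86 for Spp1, -2.83 for Epcam, -2.37 for Sox4, -2.12 for Cd24a, -1.92 for Krt7, -1.44 for Krt19, -1.41 for Krt8 and -1.06 for Krt18. A negative value means a smaller rise with the transgene in LIRKO livers.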

How the results depend on the processing

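Over 15 comparisons the number of the 9 genes called was within 1.5 times of its value in 249 of 260 alternatives. Without the livers above 0 log2 CPM of Prss2, where WT is 1 liver assumed to vary like the other groups, the counts were 0 in Z, Zstar and LIRKO against WT in the hemizygous table, 1 for LIRKO against WT among homozygous libraries and 2 for the homozygous interaction. With the pancreas mean as a covariate the last 2 were 1 and 5. On leaving out 1 liver the counts ran from 2 to 3 for Z and for LIRKO against WT in the hemizygous table, 1 to 2 for Z LIRKO against Z, 0 to 1 for Zstar against Z, 8 to 9 for ZZ against WT, 2 to 3 for ZZ LIRKO against LIRKO and 5 to 8 for the homozygous interaction, and did not move elsewhere. The cause of these shifts was not tested. Single genes changed their side of the threshold in 52 of 2340 alternatives, 42 lost and 10 gained, and no called change turned its sign. The 8 genes lower in ZZ LIRKO than in ZZ passed in all alternatives run. No paired analysis was possible because no mouse number is shared between groups of a table. In the hemizygous table Krt7 was read as few as 8 times per library, and small differences of such genes were not detectable at this depth. Differences of low genes could exceed their SE and still not pass, as for Sox9 in Z against WT (-1.36 ± 0.56).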
